A study of Mus musculus with 28 samples.

Results

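Subclone 1 is a line of mIMCD-3 cells, mouse kidney epithelium derived from inner medullary collecting ducts, grown from 1 sorted cell of the monoclonal wild-type line WT5. RNA was sequenced from 4 libraries of subclone 1 and from 16 libraries of its sister lines, 4 each of subclones 2, 3, 4 and 5, and these 20 of the 28 libraries of the series stand in 1 table. All lines are wild-type, with no edited gene and no agent added, and RNA was taken 4 days after full confluency, from cells that had been expanded for about 6 weeks after the sort. The comparison asks how far 1 clone departs from its sisters although all come from the same parental clone. Of 45706 genes listed, 12275 had a mean TPM (a transcript level scaled by length and set to the same total in each library) of 1 or more in subclone 1 or in the other 16 libraries, and 321 of them reached it on 1 side only. The 4 libraries of WT5, in a separate table, served only to tell a gain from a loss.

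A cell line sorted from 1 cell carries whatever set of active and silent genes that cell had, and daughter cells largely inherit such states along with the DNA sequence. Collecting duct cells form a tight epithelium that sorts its proteins to an apical and a basolateral side, rests on a basement membrane and moves salt and water under hormonal control. Sister clones of such a line are often used as controls for each other, for which genes that are on in 1 clone and silent in the next matter.

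All 6 epithelial markers (Cdh1, Epcam, Krt7, Krt8, Krt18, Krt19) were above 1 TPM in subclone 1, with a sum of 2128 to 2286 TPM against 1856 to 2302 TPM in the other 16 libraries. The kidney transcription factors Pax2 and Pax8 averaged 37.3 and 175.5 TPM in subclone 1, whereas the water channel Aqp2, which defines collecting duct principal cells, was listed at 0 in all libraries and the vasopressin receptor Avpr2 did not exceed 0.2 TPM in subclone 1. Of 12 markers of endothelial, blood and mesenchymal cells, 4 were listed at 0 in subclone 1 (Cdh5, Kdr, Adgre1 and Col3a1), and 2 had a mean of 1 TPM or more there. These were Cd68, with 1.83 TPM against 2.61 TPM in the others, and Csf1r, with 48.2 against 37.6 TPM (adjusted p = 0.0336, limma), and Csf1r made up most of the marker sum of 46.4 to 57.1 TPM in subclone 1 and 29.2 to 53.7 TPM in the others. Pecam1 and Ptprc, which define endothelial cells and leukocytes, did not exceed 0.01 and 0.07 TPM in subclone 1. Library depth is not known from TPM. Libraries of subclone 1 correlated at 0.976 to 0.982, and 2 libraries of the comparison side stood apart, subclone 3 replicate 2 and subclone 5 replicate 1, whose median gene lay 0.16 and 0.19 below the average of the others on the log2 scale.

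Subclone 1 differed from each of the 4 sister clones in 20 genes (0.163% of the genes tested), of which 6 were higher (0.0489%) and 14 lower (0.114%). A gene was counted as particular to subclone 1 when limma on log2(TPM + 0.1) gave an adjusted p below 0.01 and a log2 difference above 1 in the same direction against every one of the 4. Against the mean of the 4 sister clones, 92 genes passed the same thresholds (0.749%), 47 higher (0.383%) and 45 lower (0.367%), and at the adjusted p alone 421 genes passed (3.43%). In all 20 particular genes the libraries of subclone 1 lay outside the range of the other 16, which largely follows from the rule that chose them. Over all genes tested they lay outside it in 0.741% on the high side and 0.407% on the low side. Without the 2 libraries that stood apart 23 genes were particular to subclone 1, including all 20. Run on each of the other subclones in turn, the rule found 22, 11, 48 and 29 particular genes in subclones 2, 3, 4 and 5. The values of the 20 genes in each library are plotted by library, in the order of their difference. Subclone 1 is a single clone, and these p-values rest on the spread between libraries within each subclone, not on the spread between clones. The spread between libraries may be technical, since the methods call the libraries biological replicates and a legend calls them technical ones.

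**Figure D1:**
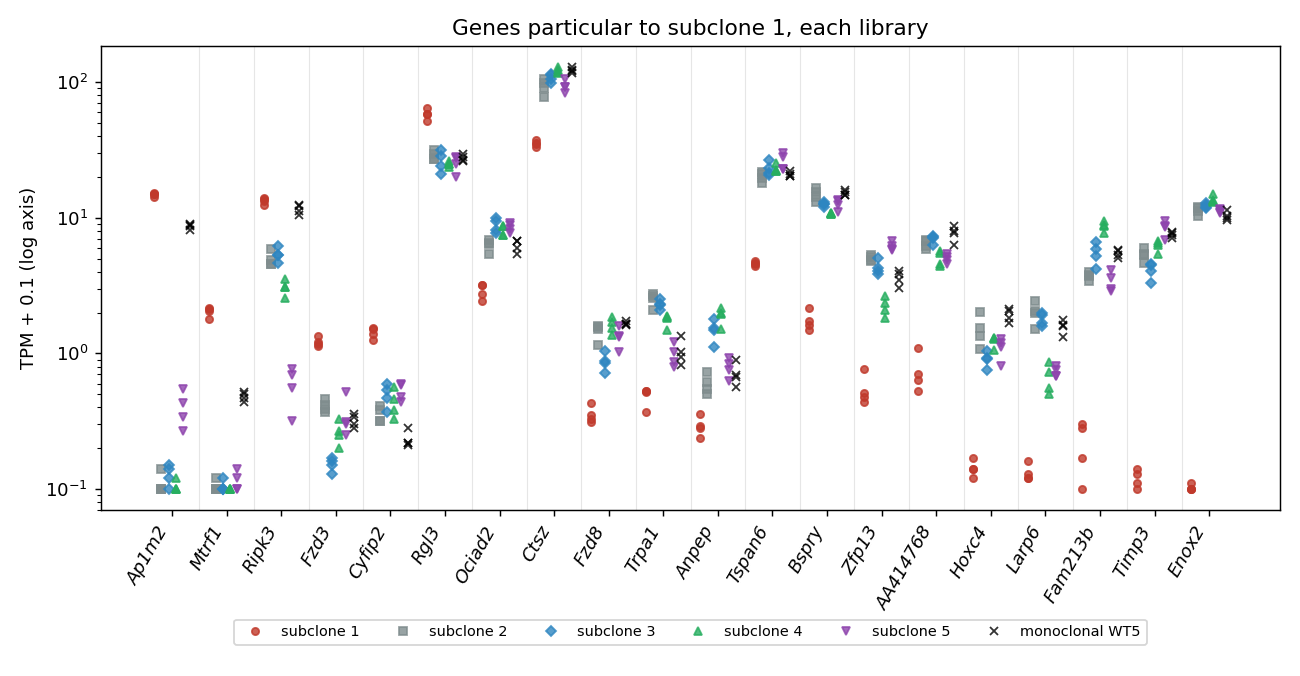
TPM + 0.1 on a log axis in each library for the 20 genes particular to subclone 1, from the largest increase on the left to the largest decrease on the right. Points are single libraries, a point at 0.1 is a TPM of 0, and crosses are WT5 from the separate table. The 4 points of subclone 1 lie above all 16 sister libraries for the 6 genes on the left and below all 16 for the other 14.

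The gene that set subclone 1 most sharply apart was Enox2 (ENSMUSG00000031109, X chromosome, GRCm38 chrX:49009707-49288259, minus strand), which codes for a cell surface NADH oxidase. In subclone 1 it was listed at 0, 0, 0.01 and 0 TPM, whereas the other 16 libraries ranged from 10.2 to 14.8 TPM with a median of 11.8 TPM. The groups were far from overlapping, and WT5, with a median of 10.1 TPM, lay with the sister clones. The difference was -6.88 ± 0.06 on the log2(TPM + 0.1) scale (SE, 4 libraries of subclone 1 and 16 of 4 sister clones, adjusted p = 1.8e-24, limma). With subclone 1 at or near 0, the size of such a difference is set by the pseudocount, and it was -3.69 with a pseudocount of 1.

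Timp3, the matrix-bound inhibitor of metalloproteinases (chr10:86300372-86349506, plus strand), was the second near-silent gene. Its TPM values in subclone 1 were 0.04, 0.01, 0 and 0.03, against 3.21 to 9.32 TPM with a median of 5.57 in the sister clones and a median of 7.49 TPM in WT5. No sister library came near the range of subclone 1, and the difference was -5.604 ± 0.11 (adjusted p = 6.6e-18), or -2.72 with a pseudocount of 1. Timp3 lies inside Syn3 on the opposite strand. Syn3 averaged 2.21 TPM in subclone 1 and 2.24 TPM in the others.

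Fam213b (chr4:154895504-154899135), a thioredoxin-like prostaglandin F synthase, had 0.20, 0, 0.18 and 0.07 TPM in subclone 1 and 2.78 to 9.38 TPM (median 4.06) in the sister clones. The ranges were separate, with a difference of -4.66 ± 0.20 (adjusted p = 1.6e-12), or -2.40 with a pseudocount of 1. A pair of low-expressed regulators was also nearly off in subclone 1 only. Larp6, an RNA-binding protein that acts on collagen mRNAs, had 0.03, 0.02, 0.02 and 0.06 TPM against 0.40 to 2.33 TPM (median 1.09), a difference of -3.11 ± 0.18. Hoxc4, a homeobox transcription factor of the HoxC cluster, had 0.02, 0.04, 0.04 and 0.07 TPM against 0.66 to 1.91 TPM (median 1.06), a difference of -3.02 ± 0.18. Both passed against every sister clone at the pseudocount of 0.1. With a pseudocount of 1 the differences from the mean were -1.03 for Larp6 and -0.99 for Hoxc4 and neither was particular to subclone 1, and Larp6 was not at a pseudocount of 0.5 either.

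In the remaining lower genes, transcripts were reduced and not absent. Bspry, a B-box and SPRY domain protein of epithelia (chr4:62480053-62497298, plus strand), had 2.08, 1.53, 1.62 and 1.38 TPM in subclone 1, and the sister clones had 10.5 to 16.4 TPM with a median of 12.5. Its difference was -2.86 ± 0.08 (adjusted p = 1.7e-15). The X-linked tetraspanin Tspan6 had 4.29, 4.68, 4.55 and 4.44 TPM against 17.9 to 30.1 TPM (median 22.2), a difference of -2.32 ± 0.07. The lysosomal protease Ctsz (cathepsin Z), the most abundant gene of the group, had 37.1, 34.7, 33.2 and 35.3 TPM against 77.4 to 129 TPM (median 104.6), a difference of -1.55 ± 0.07. These 3 genes had narrow ranges in subclone 1, and each was particular to subclone 1 in all 35 alternatives that kept both thresholds. The zinc finger gene Zfp13 had 0.41, 0.67, 0.38 and 0.34 TPM in subclone 1 against 1.72 to 6.62 TPM (median 4.71), a difference of -2.94 ± 0.12, and subclone 4 was the nearest sister with a mean of 2.13 TPM.

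Trpa1, Anpep and Fzd8 were expressed at low levels throughout and cleared the thresholds by less. Trpa1, a cation channel opened by irritants, had 0.43, 0.42, 0.43 and 0.27 TPM against 0.70 to 2.66 TPM (median 1.88), and its smallest log2 difference from a single sister was -1.004, at the threshold. Anpep, the brush border aminopeptidase N, had 0.26, 0.14, 0.19 and 0.18 TPM against 0.40 to 2.05 TPM (median 0.93), and it was particular to subclone 1 in 20 of the 35 alternatives. The filter at a mean TPM of 10 or more left Anpep untested and counts as a loss. Anpep also lost its call against the mean of the sister clones, with an adjusted p of 0.0101 (limma), when the 16 libraries were fitted as 1 group. Fzd8, a Wnt receptor, had 0.33, 0.23, 0.25 and 0.21 TPM against 0.62 to 1.77 TPM (median 1.26), a difference of -1.85 ± 0.16. With a pseudocount of 1 the differences of Trpa1, Anpep and Fzd8 were -0.97, -0.76 and -0.81. The naming rule takes the 12 protein-coding genes with the largest decrease, so the processed pseudogene AA414768 (0.43 to 1.00 TPM against 4.32 to 7.23 TPM) and Ociad2 (2.34 to 3.07 TPM against 5.29 to 9.81 TPM) were added after their values were seen. All 14 lower genes were counted as losses against WT5, since subclone 1 lay more than 1 below WT5 on the log2 scale and the mean of the sister clones lay within 1 of it. Trpa1 was close to both limits, with subclone 1 at -1.07 and the mean of the sisters at 0.80 from WT5.

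Of the 6 higher genes, Ap1m2 differed most (ENSMUSG00000003309, chr9:21294275-21312337, minus strand). It codes for the medium subunit of AP-1B, the clathrin adaptor by which epithelial cells sort proteins to the basolateral membrane. Subclone 1 had 15.18, 14.02, 14.86 and 14.95 TPM, and the other 16 libraries had 0 to 0.45 TPM with a median of 0.02, 7 of them listed at 0. The difference was 6.60 ± 0.25 (adjusted p = 2.6e-13), or 3.87 with a pseudocount of 1. WT5 had 8.01 to 8.86 TPM, so it was subclone 1 that was within 1 of the parental line on the log2 scale, and the 4 sister clones that were low, with means of 0.01, 0.03, 0.01 and 0.30 TPM.

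Ripk3, the kinase that carries out necroptosis, had the same pattern at a smaller size (chr14:55784995-55788865, minus strand). Its 4 libraries of subclone 1 had 13.11, 13.99, 13.56 and 12.29 TPM, against 0.22 to 6.10 TPM (median 3.93) in the sister clones and 10.4 to 12.4 TPM in WT5. The ranges of subclone 1 and the sisters did not overlap, and the sisters differed among themselves, with means of 4.84, 5.27, 2.96 and 0.49 TPM in subclones 2, 3, 4 and 5. The difference was 2.37 ± 0.15 (adjusted p = 1.4e-09). It did not pass when the 16 libraries were fitted as 1 group, which counts the spread between sister clones as error (adjusted p = 0.0817, limma).

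Mtrf1, a mitochondrial translation release factor (chr14:79397772-79423587, plus strand), was above the parental level in subclone 1 and below it in the sisters. Subclone 1 had 1.97, 1.68, 2.01 and 2.08 TPM, WT5 had 0.34 to 0.42 TPM, and the sister clones had 0 to 0.04 TPM, with 12 of 16 libraries listed at 0. The difference was 4.26 ± 0.35 (adjusted p = 5.3e-08), or 1.54 with a pseudocount of 1. No sister library reached the level of subclone 1 or of WT5.

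The other 3 higher genes were gains, since the mean of the sister clones lay within 1 of WT5 on the log2 scale and subclone 1 lay above. Rgl3, a Ras effector that activates Ral GTPases, had 57.7, 57.7, 51.6 and 64.2 TPM against 19.7 to 31.5 TPM (median 26.4), a difference of 1.14 ± 0.09 with no overlap. Its smallest difference from a single sister was 1.00, so its place in the group rests on the threshold. Cyfip2, a subunit of the WAVE complex that drives actin branching, had 1.44, 1.15, 1.29 and 1.42 TPM against 0.22 to 0.50 TPM (median 0.35), a difference of 1.68 ± 0.20. WT5 had 0.11 to 0.18 TPM of Cyfip2, below all 16 sister libraries. The mean of the sisters lay 0.94 above WT5, so the label of a gain rests on the threshold of 1. Fzd3, a Wnt receptor with a role in planar cell polarity, had 1.12, 1.04, 1.25 and 1.08 TPM against 0.03 to 0.42 TPM (median 0.19), a difference of 2.18 ± 0.25. With a pseudocount of 1, Cyfip2 and Fzd3 differed by 0.78 and 0.84 and passed no longer, and Fzd3 was particular to subclone 1 in 23 of the 35 alternatives. The count for Fzd3 takes as losses the alternatives whose filter left it untested.

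**Figure D2:**
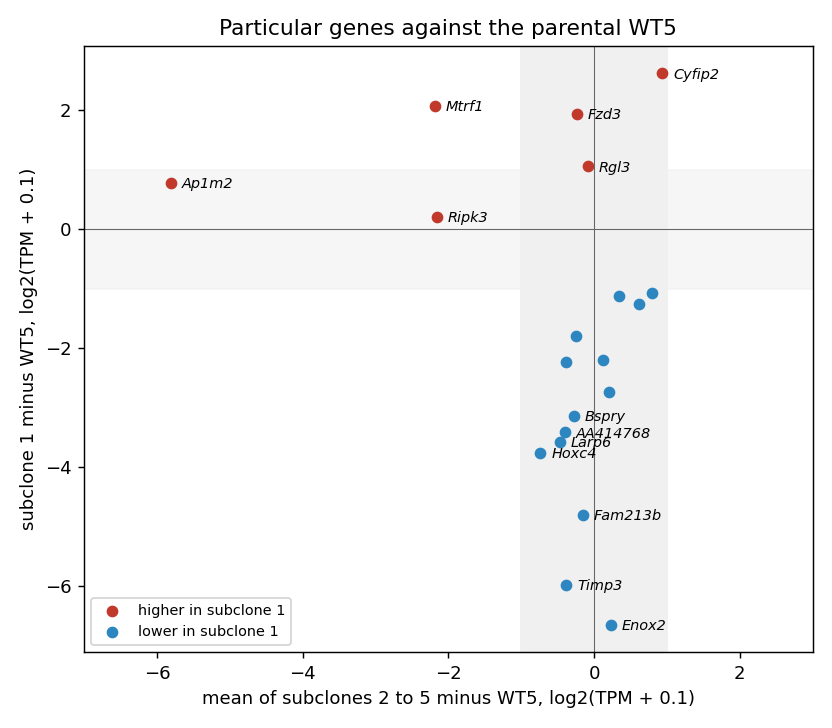
Log2(TPM + 0.1) of subclone 1 minus WT5 (vertical) against that of the mean of subclones 2 to 5 minus WT5 (horizontal) for the 20 genes, with red points higher and blue points lower in subclone 1 than in its sisters. Grey bands mark differences below 1. The 14 blue points lie in the vertical band and below the horizontal one, while Ap1m2 and Ripk3 lie in the horizontal band with the sister clones low.

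Since WT5 stands in a separate table, its values are a description. The 2 tables also differ in genes that mark the tissue, as the 6 epithelial markers summed to 3093 to 3199 TPM in WT5. Because bulk RNA was measured, a gene expressed in fewer cells and a gene expressed at a lower level in each cell cannot be told apart.

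The promoters of Enox2, Timp3, Bspry and Ap1m2 are shown because these genes had on-off or large, well-separated differences in subclone 1. CpG dinucleotides, at which mammalian promoters can be methylated, are in capitals. Each runs from 250 bases before to 50 bases after the transcript start in RefSeq on GRCm38.p6, 5′ to 3′ on the strand of the gene. Enox2 is at chrX:49288193-49288492 (minus), Timp3 at chr10:86300162-86300461 (plus), Bspry at chr4:62479812-62480111 (plus) and Ap1m2 at chr9:21312284-21312583 (minus).
Enox2: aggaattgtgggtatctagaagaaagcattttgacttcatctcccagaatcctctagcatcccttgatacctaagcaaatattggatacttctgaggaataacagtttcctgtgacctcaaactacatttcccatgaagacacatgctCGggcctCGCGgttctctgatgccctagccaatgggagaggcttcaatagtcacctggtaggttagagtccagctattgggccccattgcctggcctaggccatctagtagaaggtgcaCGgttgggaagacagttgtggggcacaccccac
Timp3: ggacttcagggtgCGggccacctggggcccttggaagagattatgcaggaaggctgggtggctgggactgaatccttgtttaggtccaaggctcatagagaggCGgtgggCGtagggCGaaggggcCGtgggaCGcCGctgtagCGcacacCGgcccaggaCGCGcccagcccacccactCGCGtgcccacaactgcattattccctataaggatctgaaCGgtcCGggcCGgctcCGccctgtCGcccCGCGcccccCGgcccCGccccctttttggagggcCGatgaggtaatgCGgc
Bspry: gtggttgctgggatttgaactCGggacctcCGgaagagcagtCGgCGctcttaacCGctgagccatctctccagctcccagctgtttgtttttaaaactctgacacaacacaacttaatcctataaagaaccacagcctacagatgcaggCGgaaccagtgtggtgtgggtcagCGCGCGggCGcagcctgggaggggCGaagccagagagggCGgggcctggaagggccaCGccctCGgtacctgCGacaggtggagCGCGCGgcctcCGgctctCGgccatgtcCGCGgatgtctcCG
Ap1m2: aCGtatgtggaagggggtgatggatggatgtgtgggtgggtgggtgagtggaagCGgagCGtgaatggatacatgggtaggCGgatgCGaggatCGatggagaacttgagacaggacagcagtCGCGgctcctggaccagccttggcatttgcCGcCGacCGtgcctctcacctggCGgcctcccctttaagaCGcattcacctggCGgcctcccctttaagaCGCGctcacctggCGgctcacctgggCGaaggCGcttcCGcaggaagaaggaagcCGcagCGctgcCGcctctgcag

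Enox2, with the largest loss, had 4 CpG in this window, and Timp3, Bspry and Ap1m2 had 24, 23 and 23. RefSeq promoters matched 16 of the 20 genes, with a median of 14.5 CpG, against a median of 22 CpG over the 9134 promoters matched among all genes tested. By an observed-to-expected CpG ratio above 0.6 and a GC content above 50%, 7 of the 16 (43.8%) and 73.8% of all were CpG rich. The letters TATAAA, on either strand, were present in 4 of the 16 (25.0%) and in 6.12% of all, and the 4 were Mtrf1, Bspry, Ociad2 and Rgl3. For Anpep, Hoxc4 and Ociad2 the RefSeq start lay 12849, 15461 and 2081 bases from the gene start of the annotation used. Methylation was not measured, and these counts describe sequence only.

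The 20 genes lay on many chromosomes. Of these, 3 lay on chromosome 9 (Ap1m2, Larp6 and Rgl3), 3 on chromosome 14 (Fzd3, Ripk3 and Mtrf1) and 3 on the X chromosome (Enox2, Tspan6 and AA414768). All 3 of chromosome 14 were higher in subclone 1, as were Ap1m2 (chr9:21294275-21312337) and Rgl3 (chr9:21968711-21989446), which lay close together. Whether this pair moved together was not tested. None of the 10 nearest tested genes of any of the 20 was called. With 0.749% called over all genes, few calls were to be looked for among so few neighbours, so their absence says little. The median difference of these neighbours lay between -0.08 and 0.10. Single neighbours ranged from -1.35 (Smt3h2-ps4, near Trpa1) to 0.62 (Rgcc, near Mtrf1). Among the 92 genes called against the mean of the sisters, 9 were on the X chromosome (2.56% of its 352 genes tested), 7 on chromosome 14 (1.79% of 390), 10 on chromosome 6 (1.70% of 587), 12 on chromosome 7 (1.37% of 877) and 0 on chromosome 13 of 459 by limma, beside 0.749% over all genes. No chromosome passed a test for a shift in subclone 1. The median of the genes of chromosome 6 was highest, 0.12 above the sisters, and its adjusted p was 0.467 over 20 chromosomes (exact permutation test of 4 against 16 libraries, two-sided). This test counts the spread between sister clones as error, so it does not show that shifts were absent. On chromosome 6 it was subclone 4 that lay lowest, at -0.24, and on chromosome 12 subclones 4 and 5 lay at 0.30 and -0.28 with subclone 1 at 0.02. Over 11199 windows of 51 neighbouring genes, the running median of subclone 1 stayed between -0.06 and 0.20, with both extremes on chromosome 6.

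**Figure D3:**
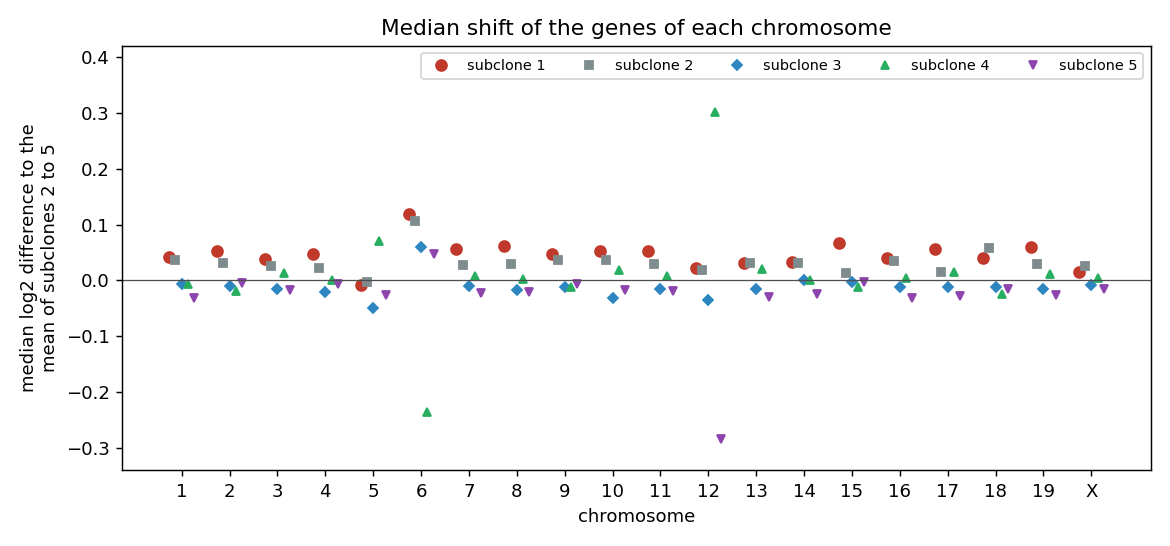
Median log2 difference of the genes of each chromosome from the mean of subclones 2 to 5, with a point for each subclone and the large red points for subclone 1. Subclone 1 stays between -0.01 and 0.12 on all 20 chromosomes, whereas subclone 4 leaves the line on chromosomes 6 and 12 and subclone 5 on chromosome 12.

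The 92 genes called against the mean of the sisters did not all pass against each of them. Of these, 20 passed the thresholds against all 4 sister clones, 24 against 3, 32 against 2, 14 against 1 and 2 against none taken singly, and in 41 every library of subclone 1 lay beyond the other 16. Gata2, a transcription factor of the collecting duct, had 1.93, 1.47, 1.15 and 1.14 TPM in subclone 1 against 0.02 to 0.80 TPM (median 0.08) in the others. It lay above all 16 and differed from the mean by 2.65 ± 0.27 (adjusted p = 1.1e-06), but subclone 2, with a mean of 0.63 TPM, was not separated by the thresholds, and with the 16 libraries as 1 group the adjusted p was 0.0136. Perp, a p53 target in desmosomes, had 1.55, 1.66, 1.47 and 2.00 TPM against 2.75 to 12.8 TPM (median 5.595). It lay below all 16, with a difference of -1.84 ± 0.08, and missed the threshold only against subclone 2, at -0.98. For other genes 1 sister clone made the difference. The chloride channel Cftr had 2.51 to 3.04 TPM in subclone 1, within the 0.02 to 3.76 TPM of the others, and only subclone 4 was low (mean 0.05 TPM), so the difference of 1.21 was 0.19 without that clone. The imprinted gene Snrpn was listed at 0 in all libraries of subclone 2, and its difference of 1.41 became 0.03 without it.

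**Figure D4:**
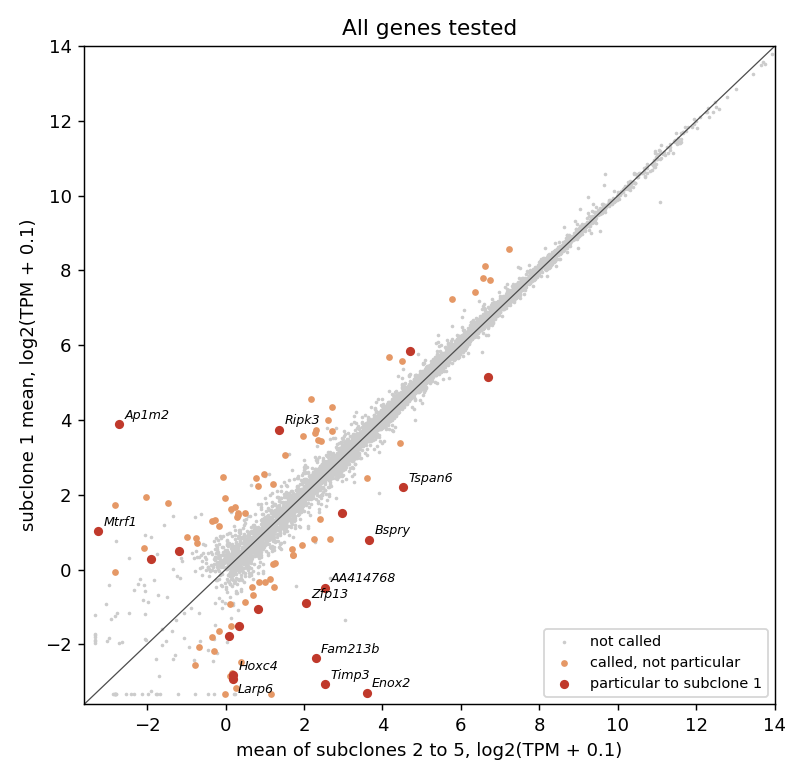
Mean log2(TPM + 0.1) of subclone 1 against the mean of subclones 2 to 5 for the 12275 genes tested, with the line of equal levels. Red points are the 20 genes particular to subclone 1, orange points the other genes called against the mean, and grey points the rest, some of which lie far from the line at low levels.

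A list of immediate early genes, ERK feedback genes and ETS factors leaned higher in subclone 1, without a member that was particular to it. Cells switch immediate early genes on within minutes of growth factor or stress signals. The list was chosen with earlier results of these data known. Of 26 members tested of this list, 13 had an adjusted p below 0.01 and were higher, against 2.39% of all genes higher at the same p, and none was lower. The median difference of the list was 0.44, against 0.04 over all genes tested. Not all parts of the list moved. The ETS factors Etv4, Ets1 and Ets2 differed by -0.38, 0.07 and 0.07, and Spred1, Spred2 and Spred3 by -0.03, 0.01 and -0.07. None of these passed the adjusted p. With the threshold of 1 on the difference, 3 were called, the transcription factors Egr2, Fosb and Fos. Egr2 had 43.7, 80.0, 47.2 and 41.7 TPM in subclone 1 against 8.21 to 60.7 TPM (median 14.3), a difference of 1.52 ± 0.26 (adjusted p = 0.00073). Its ranges overlapped, because subclone 4 had a mean of 42.6 TPM. Fos had 376, 490, 362 and 318 TPM against 60.01 to 503 TPM (median 128), a difference of 1.35 ± 0.22, and subclone 4 had a mean of 395 TPM. Fosb had 10.2, 19.2, 11.4 and 12.9 TPM against 2.01 to 12.3 TPM (median 4.57), a difference of 1.41 ± 0.24. Egr2 and Fosb did not pass with the 16 libraries as 1 group (adjusted p = 0.0946 and 0.0917, limma). Fos was not among the named genes, so its results in this fit and without replicate 2 of subclone 1 are not given. Replicate 2 of subclone 1 was the highest of its 4 libraries for all 3, and without it the differences of Egr2 and Fosb were 1.31 and 1.23 (adjusted p = 0.00897 and 0.00856).

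The more abundant members moved less but with narrower ranges. Ier2 had 1009, 1051, 951 and 974 TPM in subclone 1 against 387 to 845 TPM (median 618), and Junb had 1281, 1312, 1138 and 1295 TPM against 581 to 1072 TPM (median 786). All libraries of subclone 1 lay above the other 16 for both, which code for immediate early transcription regulators. The median difference of the 26 genes was 0.52 against subclone 2, 0.63 against subclone 3, 0.29 against subclone 4 and 0.41 against subclone 5. Of all 26, 19, 21, 21 and 22 were higher in subclone 1 than in subclones 2, 3, 4 and 5. Among the 13 higher members, subclone 1 had the highest mean of the 5 subclones in 12 and subclone 3 the lowest in 12. The first of these counts largely follows from the choice of the 13 as higher in subclone 1. In 10 of the 13, the mean of WT5 was above that of each of subclones 2 to 5, and in 7 it was above subclone 1 too.

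**Figure D5:**
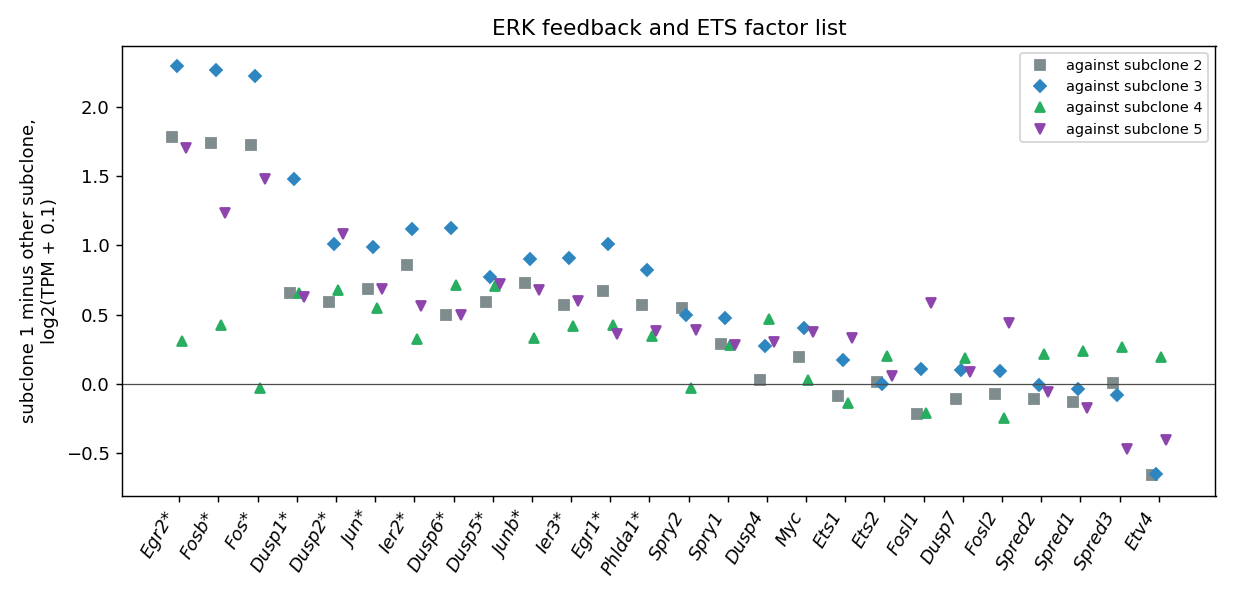
Log2(TPM + 0.1) of subclone 1 minus each sister clone for the 26 genes of the list, ordered by the difference from the mean of the 4, with an asterisk at the 13 genes with an adjusted p below 0.01. All points of these 13 are above 0 but that of Fos against subclone 4 (-0.03), and for Egr2, Fosb and Fos the point against subclone 4 is the lowest. That most points of the 13 are above 0 largely follows from their choice as higher against the mean.

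Few genes were called in the other lists. Of 39 genes of epithelial adhesion and tight junctions, 1 was called (Gjb2, lower). At the adjusted p alone 4 were higher and 3 lower, and 21 had an unadjusted p below 0.05 (limma). Of 33 glycolysis and hypoxia genes, 1 was called (Aldoc, higher). At the adjusted p alone 5 were higher and 1 lower, and 19 had an unadjusted p below 0.05. Over all genes tested these shares were 3.43% and 18.9%. Of 25 Wnt pathway genes tested, Fzd3 was called higher and Fzd8 lower, both receptors, and the median of the list was 0.10. Of 15 matrix proteases and inhibitors 1 was called (Timp3), of 23 Hox genes 1 (Hoxc4), of 23 p53 targets 2 (Perp lower and Btg2 higher), and of 19 collecting duct and tubule genes 3 (Gata2 and Cftr higher, the urea transporter Slc14a2 lower), beside 0.749% called and 3.43% at the adjusted p alone over all genes tested. Slc14a2 averaged 0.14 TPM in subclone 1, above the 0.0025 and 0.0225 TPM of subclones 2 and 3, and only subclones 4 and 5 were higher, with 4.99 and 2.40 TPM. Without subclone 5 its difference was -0.75 and the call was lost. Among 32 secreted growth factors, Igfbp2 and Ccl2 were called higher and neither was particular to subclone 1. Igfbp2 was higher still in subclone 5, with a mean of 4.57 TPM, and Ccl2 in subclones 4 and 5, with 22.9 and 28.1 TPM, its call resting on the 0.07 TPM of subclone 2. Neither passed with the 16 libraries as 1 group (adjusted p = 0.561 and 0.745, limma). No gene was called among 51 cilium and polycystic kidney disease genes, 51 subunits of the respiratory chain, 41 genes of the unfolded protein and integrated stress response, 38 of the interferon response, 30 of basement membrane and integrins, 30 growth factor receptors, 23 of the Hippo pathway, 15 of the Notch pathway and 32 of sterol and fatty acid synthesis, with limma at both thresholds. At the adjusted p alone, 1, 1, 3, 3, 1, 0, 4, 2 and 2 genes of these lists passed, and at an unadjusted p below 0.05 6, 10, 12, 11, 5, 7, 6, 5 and 14, against 18.9% of all genes tested. Yap1 differed by 0.02 ± 0.06 (adjusted p = 0.925), with 49.0 to 55.8 TPM in subclone 1 and 43.0 to 57.5 TPM in the others. The ER stress kinase gene Eif2ak3 differed by 0.46 ± 0.09 (adjusted p = 0.00225), below the threshold on size, and by more than 1 from subclone 4 only.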

How the data were processed

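RNA from mIMCD-3 lines was sequenced, per the methods as 150 bp paired ends for monoclonal cells. The authors removed adapter and low-quality reads, aligned with STAR 2.7.3a to GRCm38 (Ensembl 81), quantified with RSEM 1.3.1 and deposited the values as TPM. The submitters' notes also list CASAVA 1.8. TPM keeps no depth, so no counting error is given, and strandedness is not given in the sources used here, so overlapping genes on opposite strands are uncertain.

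Genes with a mean TPM of 1 or more on either side were fitted by limma 3.58.1 (R 4.3.3) on log2(TPM + 0.1), with a mean per subclone, a trend and no covariate, and the Benjamini-Hochberg adjustment over all genes tested. Contrasts were subclone 1 against the mean of the other 4 and against each. Differences on this scale understate the change of low genes. The study's methods name no test between subclones. Named genes are the protein-coding genes particular to subclone 1, up to 12 in each direction, and list members that were particular or were among the 2 largest called in their list. Members and lists were chosen with earlier results of these data known. Coordinates are from GENCODE M21, which listed 45143 of 45706 genes, and promoters from RefSeq. Python 3.11.15 with scipy 1.17.1 was used. Alternatives were other pseudocounts, filters, scalings, tests, thresholds and left-out libraries and clones. The fit was also run on simulated data with genes changed in subclone 1 only. These data held no differences between the sister clones.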

Additional observations from a re-analysis of the deposited data

Results flagged for a closer look

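For the 34 named genes, 170 groups of 4 libraries were tested for a library apart from the other 3, and 13 exceeded Dixon's critical value for 4 samples at 95%, where chance gives about 1 in 20. In subclone 1 these were Egr2, whose replicate 2 had 80.0 TPM against 41.7 to 47.2 TPM (gap 0.856 of the range), Trpa1, whose replicate 4 had 0.27 TPM against 0.42 to 0.43 TPM (0.937), and Enox2, with 0.01 TPM in replicate 3 and 0 in the others (1.0). Without replicate 4, Trpa1 was not particular to subclone 1. In the sister clones, Egr2 was high in subclone 2 replicate 2, at 28.0 TPM against 10.6 to 13.3 TPM (0.844), and Pcdhgc4, a clustered protocadherin, in subclone 3 replicate 4, at 7.98 TPM against 4.27 to 4.66 TPM (0.895). Fzd8 was low in subclone 2 replicate 3, at 1.05 TPM against 1.42 to 1.48 TPM (0.86). In subclone 4 replicate 1, Trpa1 was low with 1.38 TPM against 1.74 to 1.78 TPM (0.9) and Hoxc4 with 0.96 TPM against 1.17 to 1.19 TPM (0.913). The other 5 were genes at 0 in 3 libraries with at most 0.04 TPM in the last, each with a gap of 1.0 of the range. They were Ap1m2 in subclones 2 and 4, Mtrf1 in subclones 2 and 3, and Slc14a2 in subclone 2.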

How the results depend on the processing

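The count of 92 genes called against the mean of the sisters became 47 with a pseudocount of 1, 26 with a mean TPM of 10 or more, 28 (7 higher, 21 lower) with the 16 libraries as 1 group, 56 with an unequal-variance test, 10 with a z-score difference above 1, 421 without a threshold on the difference and 26 with a log2 difference above 2. The count of 20 particular genes became 12 with a pseudocount of 1, 7 with a mean TPM of 10 or more, 11 with a log2 difference above 2, and 42 (18 higher, 24 lower) by ranges of the libraries, which included all 20. Leaving out 1 replicate at a time gave 84 to 92 and 17 to 23. With the 2 libraries that stood apart left out, chosen after seeing the data, 87 and 23 genes passed, and the 23 included all 20. The replicate number as a block gave 90 and 18, and the numbers did not pair the libraries, since deviations of same-numbered libraries had a median correlation of -0.0044 and 5 of 20 libraries were closest to their own number. The split of 47 higher and 45 lower was 43 and 47 with libraries centred on their median and 42 and 52 after quantile normalization. Of the 20 particular genes, 6 stayed particular in all 35 alternatives that kept both thresholds (Ap1m2, Ripk3, Enox2, Ctsz, Bspry and Tspan6), and 18 were called with the 16 libraries as 1 group. An alternative whose filter left a gene untested counted as a loss, so this count favours abundant genes. Mtrf1, Fam213b and Zfp13 were lost only with a mean TPM of 10 or more, where they were not tested. Timp3 and AA414768 too were lost only in alternatives that left them untested. Of 34 named genes, 33 kept their direction throughout, and Ccl2 reversed to -0.15 without subclone 2, in which it was nearly 0. Without 1 clone, Slc14a2 became -0.75 (subclone 5), Aldoc 0.64 (subclone 3) and Fstl1 0.55 (subclone 2). The causes were not tested. Low TPM limits all genes under 1 TPM on 1 side, 14 of the 20.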

Other observations

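Several genes outside the named rule, chosen after their values were seen, were called against the mean of the sister clones. Obsl1, Prrg1, Gsdmd, Zfp109 and Zfp111 passed against 3 of the 4, and Mt1 and Mt2 against 2. Obsl1, a cytoskeletal adaptor, had 21.2 to 25.0 TPM in subclone 1 against 0.70 to 15.7 TPM in the others, a difference of 2.37 ± 0.12. Prrg1, an X-linked membrane protein, was listed at 0 in all libraries of subclone 1 and of subclone 5, and had means of 5.03, 5.71 and 8.61 TPM in subclones 2, 3 and 4. Gsdmd, which forms the pores of pyroptosis, had 0 to 0.07 TPM in subclone 1 against means of 0.13, 1.51, 1.80 and 2.06 TPM in subclones 2 to 5. The neighbouring zinc finger genes Zfp109 and Zfp111 on chromosome 7 were both low in subclones 1 and 5. Zfp111 had 0 to 0.04 TPM in subclone 1, a mean of 0.07 TPM in subclone 5 and 4.46 and 5.00 TPM in subclones 2 and 4. The metallothioneins Mt1 and Mt2, which bind zinc and copper, were high in subclones 1, 3 and 4, where Mt1 had means of 151, 155 and 98.3 TPM, and low in subclones 2 and 5, with 22.6 and 25.6 TPM.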
